A study of Mus musculus with 19 samples.

Results

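The genes described here encode nuclear subunits of the mitochondrial respiratory complexes I to V, and they make up 85 of the 24689 gene symbols in the expression table. They were taken by symbol, as symbols that start with Uqcr, Atp5 or Cox4 to Cox8, or with Ndufa, Ndufb, Ndufc, Ndufs or Ndufv and a digit, together with Ndufab1, Sdha, Sdhb, Sdhc and Sdhd. The set itself was chosen with earlier results of these data known. A further 9 matching symbols that contain -ps, which marks pseudogenes, were left out. Cyc1, also a nuclear gene of complex III, has a symbol outside this choice and is described with a list further on. Complex I has 39 of the genes, complex II 4, complex III 8, complex IV 17 and complex V 17. Complex I takes electrons from NADH and complex II takes them from succinate, and both hand them to coenzyme Q. Complex III passes them on to cytochrome c and complex IV to oxygen, while complexes I, III and IV pump protons and complex V, the ATP synthase, makes ATP as the protons flow back. Mitochondrial DNA encodes further subunits of each complex except complex II. In stratified epithelia, respiring mitochondria are known to be needed for normal differentiation of keratinocytes.

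Transcript levels were measured by bulk RNAseq in tongue epithelia of 19 mice, dissected free from muscle 15 days after transgene induction and read from oligo-dT selected RNA, in littermates of both sexes 8 to 16 weeks old. The 5 N mice served as controls. N mice 1 to 3 were Krt14-CreERT/LSL-rtTA, N mouse 4 had LSL-rtTA and no Cre, and N mouse 5 was Krt14-CreERT/tetON_E6-E7/tetON_YAP1S127A and had no rtTA. The 5 E mice carried tetON_E6-E7 beside Krt14-CreERT/LSL-rtTA, the 3 Y mice carried tetON_YAP1S127A beside them, and the 6 EY mice carried both. The Krt14 promoter limits CreERT to basal cells of the epithelium, and tamoxifen injected into the tongue lets it free rtTA from its stop cassette. Doxycycline then switches on the papillomavirus oncogenes E6 and E7, the active YAP1 mutant S127A and, per the study's methods, an H2B-GFP reporter. Values are in TPM, transcript counts scaled to a common total, which allow for gene length, and 8269674 to 11007304 whole reads per mouse could be recovered from them.

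The label of the tissue was checked against 10 keratinocyte genes. None was at 0 in every mouse, the most abundant was the keratin Krt13 with a mean of 48941 TPM, and together they held 73248 to 140635 TPM in N mice, with 70707 to 121856 TPM in E mice, 57955 to 106901 TPM in Y mice and 46002 to 62899.9 TPM in EY mice. In EY, 5 of the 10 were higher than in N and 2 lower at an adjusted p below 0.05, from Krt13 with a log2 fold change of -1.75 to the adhesion molecule Epcam with 1.85. After median-of-ratios scaling 5 were higher and 4 lower, as by limma voom, and the median of the 10 went from 0.50 to 0.13. Because whole tissue was sequenced, fewer cells of a type and less RNA per cell cannot be told apart in any result given here.

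The summed transcripts of the 85 genes were higher in EY and Y than in N epithelia. They came to 5814, 6451, 6386, 5059 and 6012 TPM in the N mice, to 6277, 6517, 6698, 7236 and 6161 TPM in the E mice and to 7718, 9354 and 8828 TPM in the Y mice. In the 6 EY mice they ranged from 8642 to 10844 TPM with a median of 9376. Every Y and every EY mouse lay above every N mouse, whereas the E and N mice overlapped. The ratio of the group mean to the N mean was 1.11 in E, 1.45 in Y and 1.62 in EY. The genes took 0.506% to 0.645% of all TPM in N and 0.864% to 1.08% in EY. By complex, the ratio of EY to N was 2.10 for complex II, 1.74 for complex V, 1.62 for complex III, 1.59 for complex IV and 1.43 for complex I. Within each complex the sums of the EY mice and of the Y mice lay above those of all N mice on TPM. After median-of-ratios scaling, explained with the comparison of EY and N, the sums over all 85 genes were 6297 to 7362 in N and 7114 to 9807 in EY. These groups overlapped, with 5 of 6 EY mice and 3 of 3 Y mice above all N mice. The ratio of means to N was then 1.27 in Y and 1.25 in EY, so that the order of Y and EY on TPM was not kept. The scaled ratio was larger in Y than in EY for complexes I, III and IV and smaller for complexes II and V. By complex, the EY mice above all N mice after scaling were 2 of 6 for complex I, 6 for complex II, 5 for complex III, 4 for complex IV and 6 for complex V. The Y mice above all N mice were 1 of 3 for complex I, 2 for complex IV and 3 for each of the others. No test was run on these sums.

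**Figure D1:**
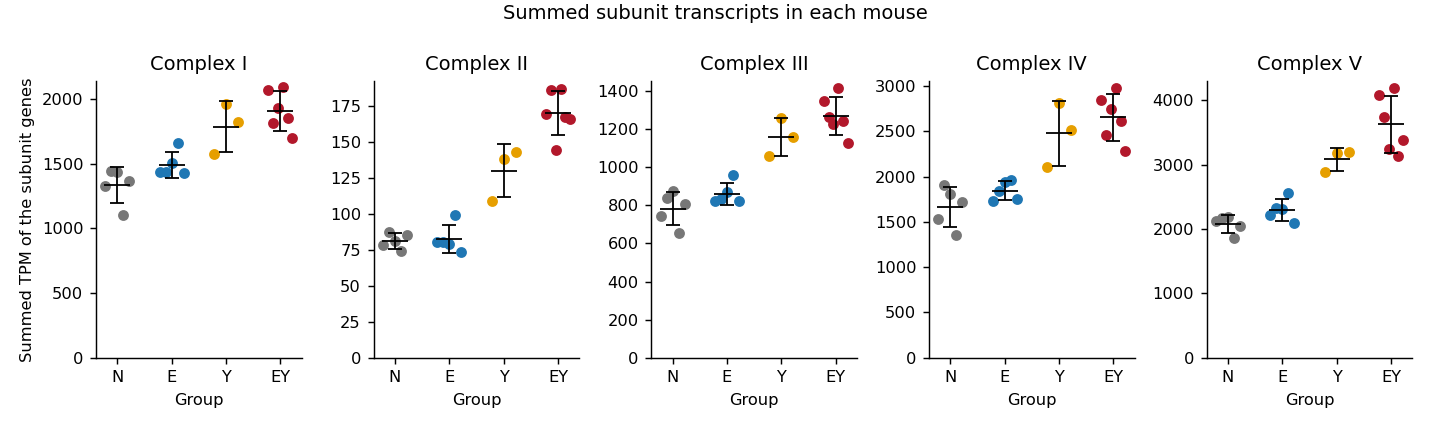
Summed TPM of the subunit genes of each respiratory complex (vertical axis, linear from 0) by group, with a point for each mouse and the mean ± SD as bars. In all 5 panels the EY points lie above the N points, which after median-of-ratios scaling holds for complexes II and V, and the sum over all complexes is 5059 to 6451 TPM in N and 8642 to 10844 TPM in EY mice.

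The first comparison, EY with N, sets mice with both E6-E7 and active YAP1 against controls. In EY, 62 of the 85 genes were higher than in N, spread over all 5 complexes, and 46 of the 85 had every EY mouse above every N mouse. Of all 22745 genes tested, 30.6% were higher and 20.9% had such separate groups. The log2 fold change had a median of 0.62 over the 85 genes, beside 0.33 over all genes tested. It ranged from -0.51 (Cox6b2) to 2.71 (Ndufa11b), neither of which was called. The test was limma on log2(TPM + 0.1) with a Benjamini-Hochberg adjusted p below 0.05. It called 0 of the 85 lower, with 0 lower at an unadjusted p below 0.05 and 1 lower (Ndufa4l2) by limma voom on the recovered reads, against 11.3% of all genes. Differentially expressed genes (DEGs) are here those with a log2 fold change of over 1 in size whose adjusted p was below 0.01. DEGs that were higher in EY numbered 8 of the 85 and 12.6% of all genes, with 2 of the 85 after median-of-ratios scaling, 3 after quantile normalization and 5 by voom. Since the median of all genes itself lay at 0.33, the TPM were also scaled by median-of-ratios factors, which brought it to 0.01 and the median of the 85 to 0.25. Of all genes called in EY, 73.0% were higher on TPM and 49.7% after scaling. After scaling 27 of the 85 were higher and 6 lower, beside 18.9% and 19.2% of all genes. On TPM, after that scaling, after quantile normalization and by voom alike, 26 of the 85 and 18.3% of all genes were higher. A change on TPM is relative to the fixed total of 1000000 TPM per mouse, and a change after scaling is relative to the shift of all genes. Neither is a change in absolute amount. The median-of-ratios factors ran from 0.80 to 1.02 in N mice and from 1.11 to 1.21 in EY mice. The changes on TPM and after scaling are both given below for most genes named from the complexes.

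Calls were found in each of the complexes, and differences between the complexes were not tested. Higher in EY were 25 of the 39 genes of complex I, 4 of 4 genes of complex II, 7 of 8 of complex III, 10 of 11 usual genes of complex IV and 15 of 17 of complex V. The 1 call among the 6 alternative isoforms of complex IV was Cox4i2. Limma called 0 of the 2 second genes of complex I subunits, of which 1 had an unadjusted p below 0.05 and 0 were called by voom. The median log2 fold change was 0.59 for complex I, 0.72 for complex II, 0.58 for complex III, 0.64 for complex IV and 0.72 for complex V. After scaling, complex I had 9 genes higher and 5 lower, complex II 2 higher, complex III 3 higher, complex IV 4 higher and 1 lower, and complex V 9 higher. The members differ in abundance. Of the 29 with the highest mean TPM (from 90.4 to 704) 28 were higher in EY, as were 17 of the 28 in the middle and 17 of the 28 with the lowest (from 0.236 to 26.3 TPM). The median log2 fold changes of these classes were 0.71, 0.40 and 0.62.

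**Figure D2:**
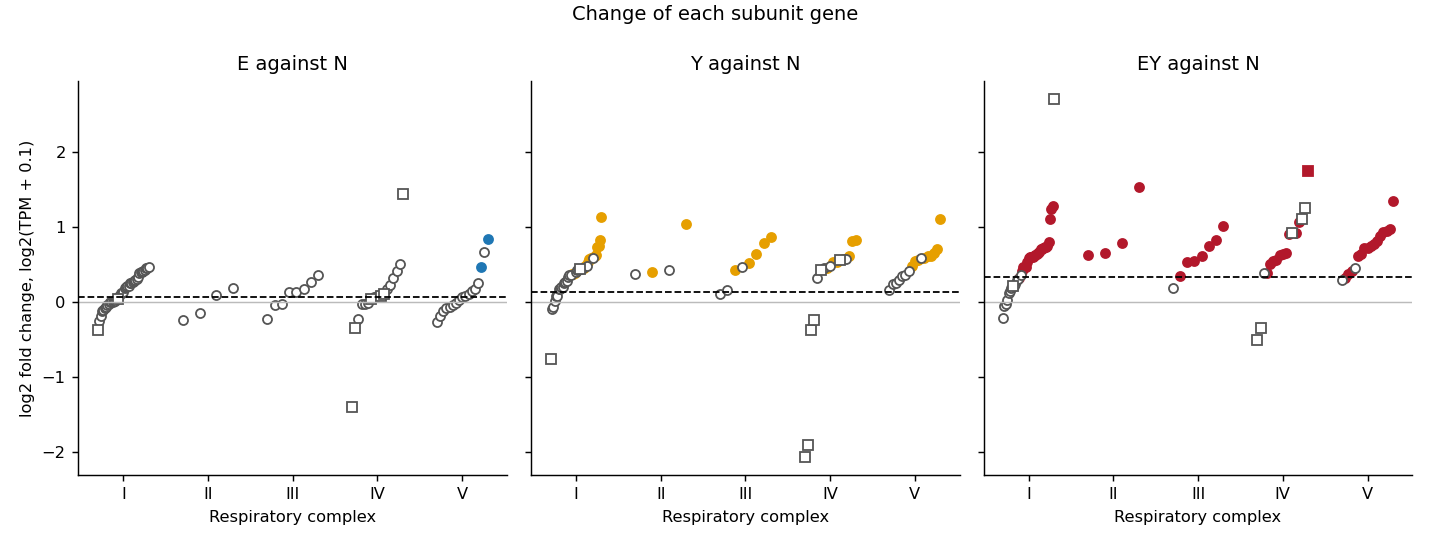
Log2 fold change on the log2(TPM + 0.1) scale (vertical axis) of each gene in E, Y and EY against the same N mice, by complex and in ascending order within it. Filled symbols have an adjusted p below 0.05, squares are alternative isoforms and the dashed line is the median of all genes tested, at 0.07, 0.13 and 0.33. Filled points number 2, 38 and 62 from left to right, and after median-of-ratios scaling 6 genes were lower in EY.

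Promoter sequences are shown for Sdhd, Atp5g3 and Ndufb6, the 3 members with the largest called increases in Y, and for Ndufc1, a complex I gene picked after the values were seen because its TPM hardly differed between N and EY. Each line holds the 250 bases before the transcription start, from RefSeq on GRCm38.p6, on the minus strand and written 5′ to 3′. The stretch for Sdhd is chr9:50603850-50604099, for Atp5g3 chr2:73911327-73911576, for Ndufb6 chr4:40279422-40279671 and for Ndufc1 chr3:51408956-51409205. Capitals mark matches on either strand (CTTCCGG is CCGGAAG on the other strand) to GCGCANGC, a core of the motif of NRF1, and to CCGGAAG, a core of the motif of ETS factors such as GABP, both of which are known regulators of respiratory chain genes.
Sdhd: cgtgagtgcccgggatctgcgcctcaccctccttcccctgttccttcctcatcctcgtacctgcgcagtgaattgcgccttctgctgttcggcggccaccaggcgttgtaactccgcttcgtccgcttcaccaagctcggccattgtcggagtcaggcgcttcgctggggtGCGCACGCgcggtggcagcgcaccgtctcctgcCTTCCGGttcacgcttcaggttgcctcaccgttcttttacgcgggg
Atp5g3: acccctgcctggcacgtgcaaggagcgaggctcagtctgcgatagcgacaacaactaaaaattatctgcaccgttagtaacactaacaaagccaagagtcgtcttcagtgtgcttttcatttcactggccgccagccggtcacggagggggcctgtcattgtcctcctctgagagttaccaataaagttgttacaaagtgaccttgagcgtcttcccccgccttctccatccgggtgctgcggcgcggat
Ndufb6: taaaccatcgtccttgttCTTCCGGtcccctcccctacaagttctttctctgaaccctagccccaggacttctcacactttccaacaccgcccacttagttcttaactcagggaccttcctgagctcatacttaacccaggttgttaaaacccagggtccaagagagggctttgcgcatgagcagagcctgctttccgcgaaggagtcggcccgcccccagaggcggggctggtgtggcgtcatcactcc
Ndufc1: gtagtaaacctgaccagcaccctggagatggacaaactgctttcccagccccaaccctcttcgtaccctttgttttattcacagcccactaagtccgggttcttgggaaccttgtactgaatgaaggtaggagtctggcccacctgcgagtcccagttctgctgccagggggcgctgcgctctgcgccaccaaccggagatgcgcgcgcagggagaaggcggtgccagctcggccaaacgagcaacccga

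The Sdhd stretch holds a match to each, the Ndufb6 stretch a match to the ETS core, and those of Atp5g3 and Ndufc1 hold neither. Atp5g3 has an NRF1 match past its start, outside the bases printed, and counts among the members with that core below. Over windows of 300 bases, 250 before and 50 after the start, 68 of the 85 members were found in the promoter table used, as were 13139 of the genes tested. The whole promoter table holds 27025 genes. The NRF1 core was in 32.4% of the members, 18.5% of the tested genes and 11.2% of all genes, and the ETS core in 23.5% of the members, 16.8% of the tested genes and 9.93% of all genes. Either was in 47.1% of the members and 31.4% of the tested genes, and 6 members held both. AAGATGGC, a core of the YY1 motif, was in 14.7% of the members, 4.44% of the tested genes and 3.19% of all genes. GGAATG, a core of the motif of the TEAD factors that bind YAP, was in 10.3% of the members, 14.9% of the tested genes and 16.6% of all genes. The NRF1 core was in 36.7% of the 49 members with a window that were higher in EY and in 21.1% of the 19 that were not called. In the same order the shares were 26.5% and 15.8% for the ETS core, 14.3% and 15.8% for the YY1 core and 12.2% and 5.26% for the TEAD core, and no test was run on them. Median GC content was 58.3% in the windows of the members and 59.2% in those of the tested genes. These matches describe the letters of the windows. The members not found in the promoter table used included Atp5a1, Atp5mpl, Cox4i1, Cox4i2, Cox6a2, Cox6c, Ndufa11b, Ndufa2, Ndufa4l2, Ndufb4c, Ndufb9, Ndufs1, Sdhc, Uqcrb, Uqcrc2 and Uqcrq.

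Complex I binds NADH through its core subunit Ndufv1, which carries the flavin, and Ndufs1 holds iron-sulfur clusters that pass the electrons on towards coenzyme Q. Ndufv1 was at 96.2, 70.2, 81.6, 66.3 and 69.6 TPM in the N mice and from 94.7 to 144 TPM with a median of 135 in EY. Ndufs1 was at 17.3, 21.7, 19.1, 16.5 and 16.8 TPM in N and from 27.1 to 33.9 TPM with a median of 29.4 in EY. All EY mice were above all N mice in Ndufs1, while in Ndufv1 the lowest EY mouse fell below N mouse 1. The log2 fold changes were 0.71 (SE 0.13, adjusted p = 3.4e-04) for Ndufv1 and 0.71 (SE 0.10, adjusted p = 2.3e-05) for Ndufs1. After median-of-ratios scaling they were 0.33 and 0.33, and Ndufs1 kept its call (adjusted p = 0.0034) while Ndufv1 did not (adjusted p = 0.060). The iron-sulfur subunit Ndufs8 was higher in EY as well (0.72, adjusted p = 5.4e-06, 0.34 after scaling). The core genes Ndufs3, Ndufs7 and Ndufv2 were not called, with log2 fold changes of 0.18, 0.24 and 0.12 on TPM that became -0.19, -0.14 and -0.26 after scaling. They and Ndufs8 are named here after their values were seen. Ndufs7 was called higher on TPM without EY mouse 5 (0.38, adjusted p = 0.025).

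Accessory subunits surround the core of complex I and are needed for its assembly and stability. Ndufb6, part of the membrane arm, was at 19.9, 21.5, 20.1, 12.6 and 21.0 TPM in N, 19.2, 25.2, 27.4, 31.0 and 26.4 in E and 35.0, 47.0 and 42.2 in Y mice, and from 38.9 to 50.7 TPM with a median of 46.1 in EY. Every Y and EY mouse was above every N mouse, and N mouse 4 was the lowest of all 19 mice. Its log2 fold change in EY was 1.28 (SE 0.14, adjusted p = 1.4e-06) and 0.90 after scaling. Ndufa5 was at 12.5, 20.3, 22.8, 11.5 and 16.2 TPM in N and from 34.3 to 40.2 TPM with a median of 39.7 in EY, again with no overlap, a log2 fold change of 1.23 (adjusted p = 7.9e-06) and of 0.86 after scaling. Ndufa2 was at 54.0, 62.7, 70.2, 44.7 and 64.3 TPM in N and from 102 to 159.6 TPM with a median of 122 in EY, with the groups apart, a log2 fold change of 1.11 (adjusted p = 1.4e-05) and of 0.73 after scaling. The most abundant complex I gene was Ndufb11, with a mean of 164 TPM over all mice. It was at 115, 163, 132, 99.1 and 132 TPM in N and from 157 to 233 TPM with a median of 189 in EY. There, 5 of the 6 EY mice were above all N mice, and the log2 fold change of 0.59 (adjusted p = 0.0024) fell to 0.21 and was no longer called after scaling (adjusted p = 0.22).

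Several accessory genes of complex I did not share the increase, and the 5 given here were picked after their values were seen because they were lower in EY after scaling. Ndufc1, a small subunit of the membrane arm, was at 60.9, 57.2, 69.3, 58.4 and 63.0 TPM in N, 52.0, 62.2, 59.2, 64.7 and 57.3 in E and 54.7, 63.9 and 57.3 in Y mice, and from 52.4 to 64.1 TPM with a median of 60.6 in EY. All 4 groups overlapped, and the log2 fold change in EY was -0.06 (adjusted p = 0.55) on TPM and -0.44 (adjusted p = 5.4e-04) after scaling. Ndufa7 had log2 fold changes of -0.03 and -0.41 on the 2 scales. Ndufb2, at 4.80, 5.85, 5.56, 2.46 and 3.44 TPM in N and from 2.72 to 4.99 TPM with a median of 3.61 in EY, had -0.21 and -0.58. Ndufa6 and Ndufa11 changed sign with the scale, from 0.03 to -0.35 and from 0.14 to -0.23. In all 5 the N and EY mice overlapped on TPM and limma called 0 of them there, against 5 lower after scaling. At unadjusted p below 0.05 the calls among them on TPM numbered 0, and voom called 0. Leaving out 1 mouse turned the sign of the TPM value for Ndufa6 (-0.07 without N mouse 4 and -0.04 without EY mouse 3) and for Ndufa7 (to at most 0.01, without EY mouse 1 or EY mouse 6). Without N mouse 3, Ndufa11 was higher in EY (log2 fold change 0.20, adjusted p = 0.039).

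Complex II, succinate dehydrogenase, links the TCA cycle to the chain and is encoded wholly in the nucleus. Sdhd, a membrane anchor that helps to bind coenzyme Q, was at 26.0, 32.6, 29.9, 24.0 and 35.3 TPM in N, 30.9, 33.3, 31.3, 42.8 and 29.3 in E and 43.5, 69.9 and 71.0 in Y mice, and from 69.3 to 91.8 TPM with a median of 87.4 in EY. The Y and EY mice were all above the N mice, whereas the E mice overlapped with them. Its log2 fold change in EY was 1.53 (SE 0.14, adjusted p = 1.4e-07) and 1.16 after scaling, which was the largest on either scale among the genes of complexes I, II, III and V that were called. Sdha, the flavoprotein that oxidizes succinate, was at 25.7, 22.3, 19.97, 21.2 and 19.4 TPM in N and from 28.1 to 47.8 TPM with a median of 38.6 in EY. Sdhb, which carries the iron-sulfur clusters, was at 16.4, 20.3, 21.4, 17.2 and 17.3 TPM in N and from 22.9 to 30.7 TPM with a median of 29.9 in EY. In both genes every EY mouse was above every N mouse. Their log2 fold changes were 0.79 (adjusted p = 1.2e-04) and 0.63 (adjusted p = 6.6e-04), and after scaling 0.41 (adjusted p = 0.024) and 0.26 (adjusted p = 0.11), so that Sdhb lost its call. Sdhd was the most abundant gene of the complex, with a mean of 53.2 TPM over all mice.

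In complex III, the Rieske protein Uqcrfs1 carries the iron-sulfur cluster that takes electrons from coenzyme Q. Uqcrfs1 was at 106, 116, 116, 105 and 124 TPM in N, 115, 119, 129, 137 and 121 in E and 164, 177 and 186 in Y mice, and from 186 to 225 TPM with a median of 198 in EY. The Y and EY mice were all above the N mice and the spread within groups was narrow. Its log2 fold change in EY was 0.82 (SE 0.07), with an adjusted p of 6.1e-08 that was the smallest among the 85 genes, and it was 0.45 after scaling (adjusted p = 1.9e-04). The core protein Uqcrc1 was at 74.2, 70.2, 60.4, 59.8 and 57.9 TPM in N and from 74.5 to 121 TPM with a median of 89.0 in EY. Uqcrq, a small subunit and with a mean of 266 TPM the most abundant of the complex, was at 169, 186, 213, 143 and 181 TPM in N and from 289 to 412 TPM with a median of 377 in EY. In both, all EY mice were above all N mice. Uqcrq rose by 1.02 on the log2 scale (adjusted p = 2.0e-06, 0.64 after scaling), and Uqcrc1 by 0.54 (adjusted p = 0.0061), which after scaling became 0.16 and was not called (adjusted p = 0.38). Uqcrh, the hinge protein, was the 1 gene of complex III that was not called in EY, at 0.19 on TPM and -0.19 after scaling, and is named after its values were seen.

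Complex IV, cytochrome c oxidase, has a catalytic core encoded in mitochondria, and its nuclear subunits surround and regulate it. Cox4i1, the usual form of subunit 4, was at 199, 232, 182, 169 and 194 TPM in N and from 238 to 312 TPM with a median of 296 in EY. Cox5a, on the matrix side, was at 44.3, 43.3, 34.8, 32.0 and 44.2 TPM in N and from 44.7 to 85.8 TPM with a median of 63.4 in EY. Cox8a, the most abundant with a mean of 392 TPM, was at 285, 360.4, 365, 297 and 339.8 TPM in N and from 393 to 552 TPM with a median of 461 in EY. The EY mice were all above the N mice in the 3 genes, by a narrow gap in Cox5a. Their log2 fold changes were 0.56 (adjusted p = 2.9e-04), 0.64 (adjusted p = 0.0031) and 0.51 (adjusted p = 9.3e-04), and after scaling 0.18, 0.27 and 0.13, with adjusted p of 0.16, 0.23 and 0.39. Ndufa4, first described in complex I and now placed in complex IV, was at 129.8, 160.0, 211, 159 and 177 TPM in N, 139, 229, 264, 197 and 222 in E and 226, 352 and 311 in Y mice, and from 250.2 to 424 TPM with a median of 365 in EY. No EY mouse overlapped with the N mice, and its log2 fold change of 1.07 (SE 0.18, adjusted p = 1.0e-04) was 0.69 after scaling (adjusted p = 0.0065). The usual forms Cox6b1, Cox7a2 and Cox7b rose by 0.63, 0.66 and 0.54 on the log2 scale, with adjusted p of 2.2e-04, 1.1e-04 and 0.0018 and every EY mouse above every N mouse. After scaling these 3 values were 0.25, 0.28 and 0.17, with adjusted p of 0.084, 0.057 and 0.30. Cox7a2l, which helps to join complexes III and IV, was not called (log2 fold change 0.38, adjusted p = 0.067), with N mouse 2 at 51.8 TPM above 5 of the 6 EY mice. It was called without N mouse 2 (0.50, adjusted p = 0.017) and without E mouse 5 (adjusted p = 0.039).

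Of the 6 alternative isoforms of complex IV, Cox4i2 was the 1 called in EY. Ndufa4l2, a relative of Ndufa4 that is known as a target of the hypoxia factor HIF1A, was at 115, 106, 149.8, 75.3 and 112 TPM in N, 123, 132, 114, 139 and 84.3 in E and 184, 153 and 111 in Y mice, and from 60.6 to 119 TPM with a median of 85.7 in EY. The EY and N mice overlapped, while all Y mice but 1 lay above all EY mice. Its log2 fold change against N was -0.35 in EY (adjusted p = 0.17) and 0.42 in Y (adjusted p = 0.25), and after scaling it was lower in EY (-0.72, adjusted p = 0.0055). Of the summed TPM of Ndufa4 and Ndufa4l2, the share of Ndufa4l2 was 39.8% ± 5.30 (SD, n = 5) in N, 36.5% ± 8.01 (n = 5) in E, 33.8% ± 9.80 (n = 3) in Y and 20.1% ± 4.08 (n = 6) in EY. Cox4i2, an isoform of subunit 4 known from lung and from low oxygen, was at 0.0524, 0.216, 0.236, 0 and 0.102 TPM in N, 0.0504, 0.179, 0.303, 0.0615 and 0.0577 in E and 0.133, 0.175 and 0.301 in Y mice, and from 0.272 to 1.33 TPM with a median of 0.528 in EY. Every EY mouse was above every N mouse, and the log2 fold change was 1.75 (SE 0.40, adjusted p = 0.0019) and 1.52 after scaling. At such low levels the value depends on the pseudocount, and on log2(TPM + 1) the log2 fold change of Cox4i2 in EY against N was 0.53 (adjusted p = 0.0026), still called but below the limit for DEGs. These values rest on 0 to 4 reads per N mouse and 5 to 22 per EY mouse. Cox4i2 held 0.0602% of the TPM of Cox4i1 and Cox4i2 in N and 0.238% in EY. Cox6b2, the testis form of subunit 6B, was at 3.06, 4.95, 8.35, 0 and 2.13 TPM in N and from 0 to 3.45 TPM with a median of 1.86 in EY, with overlapping groups and a log2 fold change of -0.51 (adjusted p = 0.74) that became 0.01 without N mouse 3 and 0.25 without EY mouse 1.

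Cox6a2, Cox7a1 and Cox8b are the heart and skeletal muscle forms of their subunits, and their levels varied widely within each group. Cox6a2 was at 4.19, 24.6, 1.34, 4.65 and 4.66 TPM in N, 6.90, 5.44, 1.39, 0.702 and 21.7 in E and 0.757, 28.7 and 0 in Y mice, and from 0.674 to 84.1 TPM with a median of 17.2 in EY. Cox7a1 was at 2.65, 16.1, 2.65, 1.78 and 4.59 TPM in N, 2.83, 3.01, 3.07, 5.88 and 7.13 in E and 1.49, 7.55 and 2.36 in Y, and from 2.66 to 25.1 TPM with a median of 7.36 in EY. Cox8b was at 3.80, 10.5, 1.705, 0.655 and 2.22 TPM in N, 1.82, 0.432, 0.879, 0 and 10.03 in E and 0.480, 4.23 and 0 in Y, and from 1.28 to 39.6 TPM with a median of 6.79 in EY. N mouse 2, E mouse 5, Y mouse 2 and EY mouse 3 were the highest of their groups in all 3 genes, and these were also the mice of their groups with the most muscle marker transcripts. The 15 skeletal muscle markers summed to 102, 380.1, 27.4, 60.9 and 76.8 TPM in N, 63.7, 43.7, 60.4, 31.5 and 207 in E and 33.1, 258 and 58.8 TPM in Y mice, and from 81.0 to 1818 TPM in EY with a median of 269.7. The most abundant of the 15 was the actin Acta1 with a mean of 88.4 TPM, none was at 0 in every mouse, and 2 of 15 were higher in EY than in N. On TPM the log2 fold changes in EY were 1.25, 0.91 and 1.11 (adjusted p = 0.50, 0.23 and 0.50), and with the mean log2 muscle marker level as a covariate they turned to -1.09, -0.03 and -0.93. Single mice moved these values, Cox6a2 to 0.80 without N mouse 3, 0.69 without EY mouse 3 and 2.05 without EY mouse 4, Cox8b to 0.65 without N mouse 4 and 0.55 without EY mouse 3, and Cox7a1 to 0.57 without EY mouse 3. Cox7a1 was called higher without N mouse 2 (1.41, adjusted p = 0.045). With the covariate 57 of the 85 were higher in EY and 39 in Y. Leaving out these 4 mice, an alternative chosen after seeing the data, gave 64 genes higher in EY and 22 in Y, beside 62 and 38 with all mice.

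**Figure D3:**
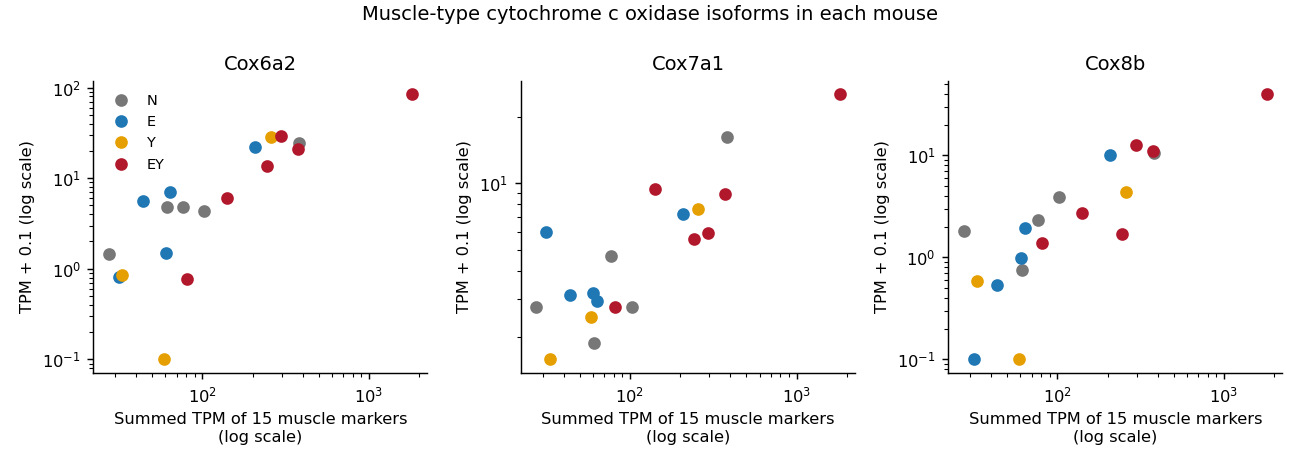
TPM + 0.1 of Cox6a2, Cox7a1 and Cox8b (vertical axes, log scale) against the summed TPM of 15 skeletal muscle markers (horizontal axes, log scale), with a point for each of the 19 mice in the colour of its group. The EY mouse at 1818 TPM of muscle markers has the highest level of each isoform, and points of all 4 groups are mixed along the cloud.

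In complex V the alpha and beta subunits, Atp5a1 and Atp5b, form the catalytic F1 head that makes ATP. Atp5b, with a mean of 704 TPM the most abundant of the 85 genes, was at 572, 497, 471, 482 and 447 TPM in N, 521, 550.1, 507, 631 and 442 in E and 806, 673 and 844 in Y mice, and from 739.7 to 1254 TPM with a median of 983 in EY. Atp5a1 was at 306, 308, 309, 294 and 273 TPM in N, 293, 294, 289, 362 and 241 in E and 448, 424 and 464 in Y, and from 427 to 593 TPM with a median of 556 in EY. In both genes every Y and every EY mouse was above every N mouse. The log2 fold change in EY was 0.97 for Atp5b (SE 0.14, adjusted p = 2.8e-05) and 0.81 for Atp5a1 (SE 0.10, adjusted p = 5.4e-06), and after scaling 0.60 and 0.44, both still called. The other 3 genes of the F1 head and central stalk, Atp5c1, Atp5d and Atp5e, were higher in EY as well, by 0.72, 0.41 and 0.74 on the log2 scale, and Atp5d lost its call after scaling (0.03, adjusted p = 0.85). Atp5c1 and Atp5d are named after their values were seen.

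The c subunit, whose ring turns as protons pass, is made from Atp5g1, Atp5g2 and Atp5g3, which encode the same mature protein. How reads that fit more than 1 of these genes were counted is not given in the sources used here, and the levels of the single genes are uncertain. Atp5g3 was at 199, 141, 154, 122 and 171 TPM in N, 236, 241, 252, 298 and 206 in E and 329, 338 and 336 in Y mice, and from 276 to 556 TPM with a median of 393 in EY. Atp5g1 was at 56.2, 57.3, 69.5, 51.4 and 58.4 TPM in N, 52.9, 58.1, 53.8, 69.9 and 50.7 in E and 87.3, 89.8 and 90.8 in Y, and from 94.4 to 123 TPM with a median of 116 in EY. Atp5g2 was at 52.2, 57.4, 56.2, 49.8 and 61.4 TPM in N, 57.8, 60.7, 54.5, 64.8 and 52.7 in E and 51.8, 82.5 and 72.2 in Y, and from 74.2 to 114 TPM with a median of 90.2 in EY. All EY mice were above all N mice in each gene, and in Atp5g3 so were all Y and all E mice. In EY the log2 fold change was 1.35 for Atp5g3 (SE 0.18, adjusted p = 7.9e-06), 0.94 for Atp5g1 (SE 0.09, adjusted p = 3.9e-07) and 0.72 for Atp5g2 (SE 0.12, adjusted p = 1.0e-04). After scaling the values were 0.97, 0.57 and 0.34, and the call of Atp5g2 ended (adjusted p = 0.051). Atp5g3 made up 57.7% ± 4.28 (SD, n = 5) of the TPM of the 3 genes in N, 68.1% ± 1.37 (n = 5) in E, 68.0% ± 2.10 (n = 3) in Y and 65.8% ± 4.62 (n = 6) in EY.

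The stalk at the side of complex V holds the head still against the turning ring. Its subunit b gene Atp5pb was at 62.6, 72.3, 71.9, 56.4 and 68.7 TPM in N, 57.8, 73.8, 72.6, 70.1 and 74.8 in E and 81.8, 106 and 107 in Y mice, and from 116 to 142 TPM with a median of 123 in EY. Every EY mouse was above every N and every Y mouse, and the log2 fold change in EY against N was 0.92 (adjusted p = 4.9e-07) and 0.55 after scaling. Of the 4 stalk genes 3 were higher in EY. The fourth, Atp5o, was listed at only 0.124 to 0.349 TPM in the 19 mice and was not called (0.45, adjusted p = 0.074), though it was without EY mouse 6 (adjusted p = 0.045). Its values rest on 55 to 105 reads per N mouse and 78 to 132 per EY mouse. The stalk gene Atp5h had 1480 to 2008 reads at 197 to 260 TPM in N. Why the TPM of Atp5o were so low for its reads was not tested, and near the pseudocount of 0.1 its log2 fold change depends on that setting. Among the small membrane subunits 4 of 5 were higher, and Atp5l, subunit g, was not called (0.29, adjusted p = 0.053), turned to -0.09 after scaling and was called on TPM without N mouse 2, N mouse 3, Y mouse 1 or Y mouse 2 (adjusted p down to 0.012). Atp5k, the e subunit that helps ATP synthases to pair, was at 105, 82.2, 98.3, 54.3 and 117 TPM in N, 158, 167, 192, 139 and 141 in E and 111, 187 and 112 in Y mice, and from 116 to 181 TPM with a median of 152 in EY. In EY 5 of 6 mice were above all N mice, and its log2 fold change of 0.77 (adjusted p = 0.0034) became 0.39 after scaling and was not called (adjusted p = 0.15). The inhibitor of the complex, listed as Atpif1 and so outside the chosen symbols, was at 204, 274, 231, 181 and 232 TPM in N and from 253 to 298 TPM with a median of 267 in EY, with overlapping mice and a log2 fold change of 0.29 that was not called (adjusted p = 0.087), turned to -0.09 after scaling, and was called without N mouse 2 or Y mouse 1 (adjusted p down to 0.014). Atp5pb, Atp5l and Atp5o are named after their values were seen.

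**Figure D4:**
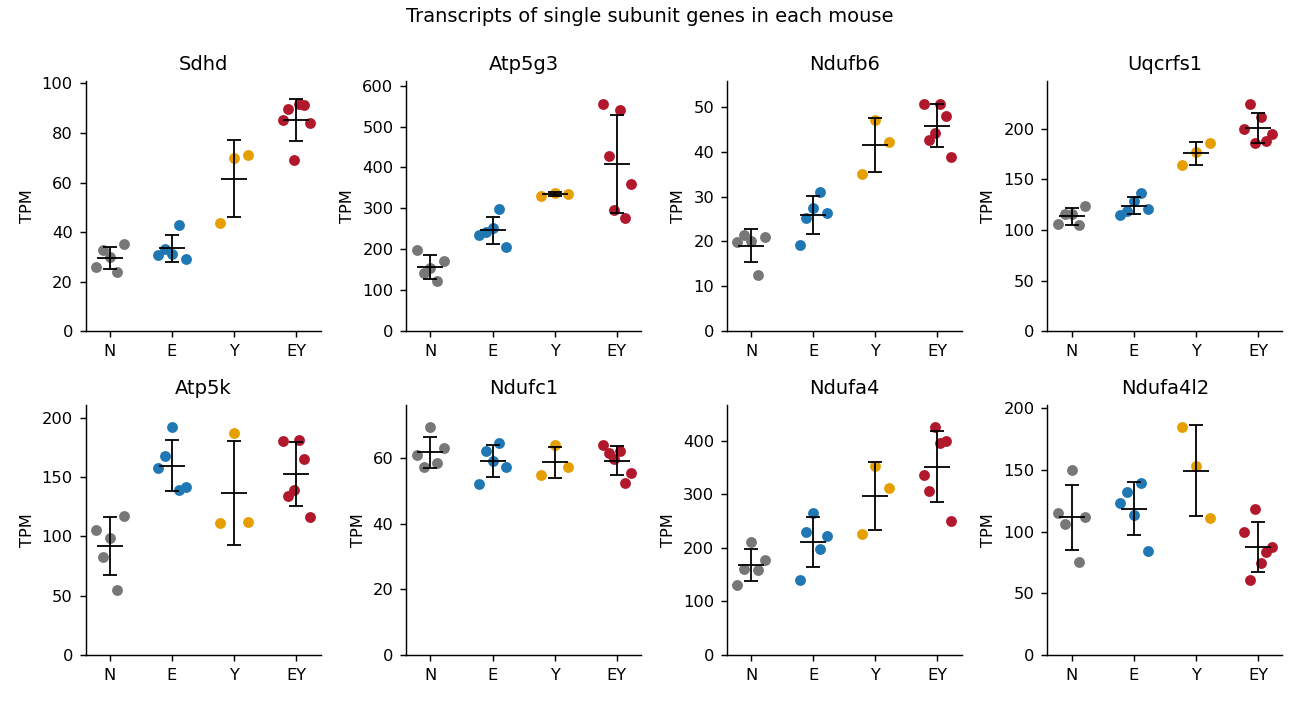
TPM (vertical axes, linear from 0) of 8 subunit genes in each mouse, by group, with the mean ± SD as bars. Sdhd, Atp5g3, Ndufb6, Uqcrfs1 and Ndufa4 have all EY points above all N points, Atp5k has all E points above all N points, and the points of N and EY overlap in Ndufc1 and Ndufa4l2, both of which were lower in EY after median-of-ratios scaling.

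In E, where only the viral oncogenes were switched on, few of the genes were called against N. Of the 85, 2 were higher, both in complex V, beside 3.32% of all genes tested, and 7 had every E mouse above every N mouse, beside 3.93%. Atp5k, whose values are given above, had all E mice above all N mice and a log2 fold change of 0.84 (SE 0.20, adjusted p = 0.024). Atp5e, the epsilon subunit of the central stalk, was at 117, 133, 126, 95.5 and 133 TPM in N and 166, 172, 166, 168 and 157 in E mice. Its groups did not overlap either, and the log2 fold change was 0.47 (SE 0.12, adjusted p = 0.035). Voom also called 2 genes higher in E, Atp5k (adjusted p = 0.021) and Atp5g3 (adjusted p = 0.047), and ended the call of Atp5e (adjusted p = 0.064). The median log2 fold change of the 85 was 0.09 on TPM, beside 0.07 over all genes, and turned to -0.01 after scaling, beside -0.02. At an unadjusted p below 0.05 on TPM 17 of the 85 were higher, beside 2553 of the 22745 genes tested. Limma called 0 of the 85 lower, with 2 lower at an unadjusted p below 0.05 and 0 by voom, beside 0.277% of all genes. DEGs that were higher in E numbered 0 of the 85 and 1.16% of all genes. After scaling 0 were higher and 0 lower, with 17 at an unadjusted p below 0.05, beside 2.43% and 0.668% of all genes. Of the genes called, 92.3% were higher on TPM and 78.4% after scaling. These calls changed with single mice. The count of 2 fell to 0 without N mouse 4, E mouse 2 or E mouse 3, to 1 without N mouse 3 or E mouse 4, and rose to 4 without EY mouse 1. It was also 0 with only N mice 1 to 3, after quantile normalization or with mouse number as a replicate block, and 4 with a filter at 1 TPM. Atp5k lost its call without N mouse 2 or 4 or E mouse 2 or 3 (adjusted p up to 0.075), and Atp5e without N mouse 1, 3 or 4 or any 1 of the E mice (adjusted p up to 0.10). Atp5g3, with all E mice above all N mice, missed the threshold (log2 fold change 0.66, adjusted p = 0.058) and passed it without N mouse 1 or without EY mouse 1, 3, 4 or 5 (adjusted p down to 0.036). Ndufb6 (0.45, adjusted p = 0.13) passed it without E mouse 1 (adjusted p = 0.041).

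In Y, where active YAP1 was switched on alone, a larger part of the genes rose. Of the 85, 38 were higher than in N, beside 13% of all genes tested, and 34 had all 3 Y mice above all 5 N mice, beside 15.5%. They were 15 of 39 genes in complex I, 2 of 4 in complex II, 5 of 8 in complex III, 7 of 17 in complex IV and 9 of 17 in complex V. The median log2 fold change was 0.44, beside 0.13 over all genes, and after scaling 0.24, beside -0.03. DEGs that were higher in Y numbered 3 of the 85 and 3.47% of all genes. The 3 were Ndufb6 (log2 fold change 1.13, adjusted p = 2.7e-04), Atp5g3 (1.11, adjusted p = 0.0017) and Sdhd (1.03, adjusted p = 4.6e-04), all with their Y mice above the N mice. Next came Uqcr11, a small subunit of complex III, at 69.9, 67.3, 76.8, 42.7 and 65.1 TPM in N and 116, 118 and 112 in Y mice, again apart. It rose by 0.87 on the log2 scale (adjusted p = 0.0027) and Ndufa2 by 0.83 (adjusted p = 0.0049). Uqcrfs1 rose by 0.63 (adjusted p = 8.7e-05) and Atp5g1 by 0.61 (adjusted p = 0.0013), with the 3 Y mice above all N mice in both.

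Limma called 0 of the 85 lower in Y, with 0 lower at an unadjusted p below 0.05 and 0 by voom, beside 3.47% of all genes. After scaling 15 members were higher and 0 lower, beside 7.34% and 6.05% of all genes. Of all genes called in Y, 79.0% were higher on TPM and 54.8% after scaling. With 3 Y mice the counts moved with single animals. Without Y mouse 2 the count of 38 fell to 24 and without Y mouse 3 to 19, and the count of 3 DEGs fell to 1 without N mouse 4 or Y mouse 3. The count of 38 was 22 with only N mice 1 to 3, 22 with only the groups compared, 24 by voom and 10 after quantile normalization. DEGs in Y numbered 0 after median-of-ratios scaling or quantile normalization, and 1 with only N mice 1 to 3 or only the groups compared. Under the 2 scalings, in this order, Ndufb6 was at 0.93 and 0.85 (adjusted p = 8.3e-04 and 0.0015). Atp5g3 was at 0.91 and 0.85 (adjusted p = 0.010 and 0.0093). Both genes thus fell below the limit of 1 for DEGs but were still called higher. Of the genes named so far, Atp5b (0.65) and Ndufv1 (0.58) lost their call in Y without Y mouse 1 or 3, with adjusted p up to 0.084 and 0.096. Ndufa4 (0.82) and Ndufa5 (0.73) lost it without Y mouse 2 or 3, with adjusted p up to 0.076 and 0.079. Cox8a (0.46) lost it without N mouse 1 or 4 or Y mouse 2 or 3 (adjusted p up to 0.093), and Ndufs1 (0.39) without N mouse 1, 4 or 5 or Y mouse 1 or 3 (adjusted p up to 0.22). After median-of-ratios scaling Atp5b (0.45, adjusted p = 0.11), Ndufa4 (0.62, adjusted p = 0.076) and Cox8a (0.26, adjusted p = 0.23) were not called in Y. Ndufa5 kept its call (0.53, adjusted p = 0.045), and 0 of the complex I core genes, which include Ndufv1 and Ndufs1, were called.

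EY and Y mice, which differ in E6-E7, had few called differences in these genes. They differed at an adjusted p below 0.05 in 2 of the 85, 1 higher and 1 lower in EY, beside 6.18% and 2.66% of all genes. At an unadjusted p below 0.05 on TPM, 16 of the 85 were higher and 1 lower, beside 3943 and 1482 of the 22745 genes tested. Atp5pb was higher in EY, with every EY above every Y mouse (log2 fold change 0.37, adjusted p = 0.047), and Ndufa4l2 was lower (-0.77, adjusted p = 0.041), with 5 of 6 EY mice below all Y mice. The median of the 85 was 0.14, beside 0.18 over all genes, and turned to -0.03 after scaling, beside 0.02. After scaling 0 were higher and 1 lower by limma, with 7 at an unadjusted p below 0.05, beside 3.01% and 4.37% of all genes, while voom called 0 higher and 1 lower. Of all genes called, 69.9% were higher on TPM and 40.7% after scaling. Both calls were close to the threshold. With only the groups compared both ended. The call of Ndufa4l2 also ended with the muscle covariate, with mouse number as a replicate block and without the mice highest in muscle markers. Atp5pb kept its call with N mouse 2 or 4, E mouse 1 or EY mouse 3 left out and lost it without any 1 of the other 15 mice (adjusted p up to 0.28, without Y mouse 1). Ndufa4l2 lost its call without N mouse 5, E mouse 3, Y mouse 1 or 2 or EY mouse 2, 4, 5 or 6 (adjusted p up to 0.21, without Y mouse 1). The count of genes higher in EY ranged from 0 to 4 as 1 mouse was left out, with 4 reached without Y mouse 2, 2 without N mouse 4, E mouse 4 or EY mouse 3, and 0 without N mouse 1, 3 or 5, E mouse 2, 3 or 5, Y mouse 1 or 3, or EY mouse 2 or 4.

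EY and E mice, which differ in active YAP1, had many more called differences. With 3 Y and 5 E mice, the median SE of the 85 genes was 0.146 for EY against Y and 0.125 for EY against E. Between EY and E mice 51 of the 85 were higher in EY, beside 24.7% of all genes, 17 of 39 in complex I, 4 of 4 in complex II, 6 of 8 in complex III, 11 of 17 in complex IV and 13 of 17 in complex V. Of the 2 DEGs among the 85, both higher, Sdhd had every EY mouse above every E mouse and a log2 fold change of 1.35 (SE 0.14, adjusted p = 1.1e-06), and the other DEG was Cox4i2 (1.67, adjusted p = 0.0035). On log2(TPM + 1) the log2 fold change of Cox4i2 in EY against E was 0.52 (adjusted p = 0.0037), below the limit for DEGs. Of all genes, 7.82% were DEGs higher in EY than in E. The median of the 85 was 0.51, beside 0.26 over all genes, and after scaling 0.25, beside 0.04. Limma called 0 lower, with 1 lower at an unadjusted p below 0.05 and 1 (Ndufa4l2) by voom, beside 10.6% of all genes. After scaling 29 were higher and 3 lower, beside 16.4% and 16.3% of all genes. Of all genes called between EY and E, 70.0% were higher on TPM and 50.1% after scaling. Without E mouse 5 or EY mouse 3 the count of lower genes was 1.

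Whether the joint change differed from the sum of the single changes was tested as an interaction, EY minus E minus Y plus N. Limma called 0 of the 85 genes, with 15 at an unadjusted p below 0.05, and voom called 0 with 16, while 0.906% of all genes tested were called. The smallest adjusted p belonged to Atp5c1, the gamma subunit of the central stalk, at 0.12 with an interaction of 0.56 (SE 0.16) on the log2 scale. Atp5c1 was at 33.6, 41.1, 46.0, 37.4 and 40.1 TPM in N, 31.0, 33.9, 33.7, 40.0 and 34.6 in E and 40.0, 58.8 and 54.1 in Y mice, and from 56.4 to 70.3 TPM with a median of 66.7 in EY. Its E mice lay on average below the N mice, and 5 of the 6 EY mice lay above all Y mice. For Ndufa4l2 the interaction was -0.87 (SE 0.30, adjusted p = 0.20), for Sdhb 0.50 (adjusted p = 0.28) and for Atp5k -0.65 (adjusted p = 0.35). Since the comparisons of E, Y and EY use the same N mice, their values stand side by side here and no overlap between them is given.

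**Figure D5:**
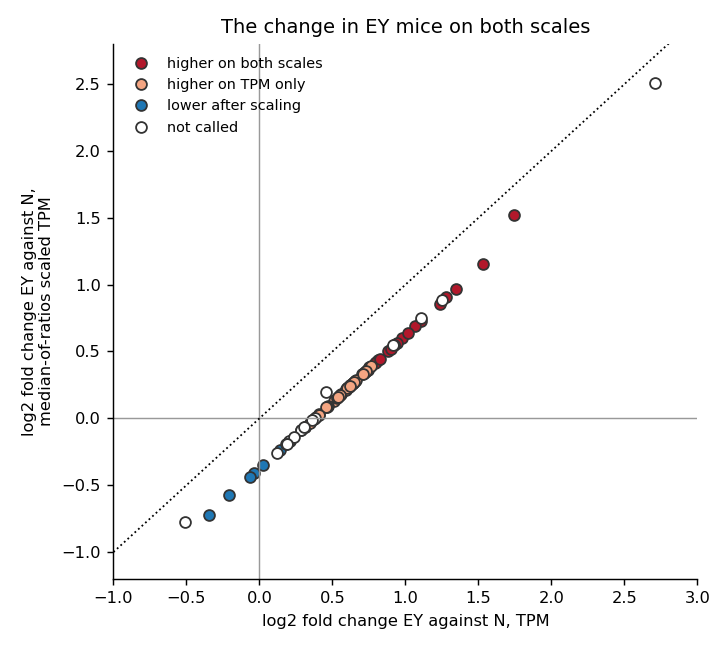
Log2 fold change of the 85 genes in EY against N on TPM (horizontal axis) and after median-of-ratios scaling (vertical axis), with the dotted line at equality. All points lie below the line, 27 genes are higher on both scales (dark red), and the 6 that are lower after scaling (blue) include Ndufa6 and Ndufa11, which lie right of 0 on TPM.

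Some members share sequence with other genes, and how reads that fit several genes were handled is not given in the sources used here. Ndufb4c, a second gene close in sequence to the accessory gene Ndufb4, was at 38.1, 7.53, 18.1, 20.2 and 19.96 TPM in N and from 14.9 to 25.9 TPM with a median of 22.6 in EY, and Ndufb4 at 13.8, 25.9, 17.5, 13.1 and 16.4 TPM in N and from 21.7 to 32.4 TPM with a median of 28.7 in EY. Ndufb4 rose in EY (0.73, adjusted p = 0.0017, not called after scaling with 0.35, adjusted p = 0.083). Ndufb4c was not called (0.20, adjusted p = 0.70) and turned to -0.17 after scaling and to -0.11 without N mouse 2. Ndufa11b, a second gene of the Ndufa11 subunit, was listed at 0 in 4 of 5 N, 4 of 5 E, all 3 Y and 2 of 6 EY mice, and its highest EY value was 6.22 TPM. Its log2 fold change of 2.71 (adjusted p = 0.076) was not called, but was without N mouse 5, EY mouse 3 or EY mouse 4 (adjusted p down to 0.022). These values rest on 0 to 1 reads per N mouse and 0 to 4 per EY mouse. Ndufb4, Ndufb4c, Ndufa11 and Ndufa11b were picked after their values were seen, and their levels are uncertain. The 9 pseudogene symbols that match the name rule were not counted among the members.

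Other genes of the pathway were followed as lists, each described by its counts and median beside those of all genes (30.6% higher and median 0.33 in EY, after scaling 18.9% and 0.01). Assembly factors, which build the complexes without staying in them, had 32 of 54 tested higher in EY and 3 lower (median 0.44), from Acad9 at -0.97 (adjusted p = 6.4e-06) to Cmc2 at 1.76 (adjusted p = 9.9e-07). Coa3 was the most abundant with a mean of 164 TPM. Of the assembly factors after scaling 14 were higher and 5 lower (median 0.09). Of the mitochondrially encoded subunits 2 of 13 were higher in EY (median 0.26), mt-Co2 (0.70, adjusted p = 0.012) and mt-Nd1. The call of mt-Nd1 ended with any 1 of 11 of the mice left out (adjusted p up to 0.097). The subunit mt-Nd4l was not called at -0.53, and mt-Co1 was the most abundant. After scaling both calls ended, 0 were higher and 1 lower, and the median turned to -0.12. These 13 transcripts summed to 95394 to 135196 TPM in N mice, to 62931 to 100651 TPM in E mice, to 76818 to 127450.0 TPM in Y mice and to 87042 to 165292 TPM in EY mice, and each group overlapped with N. The list of cytochrome c, coenzyme Q synthesis and Cyc1 had 7 of 15 higher and 0 lower (median 0.31), with values from -0.90 to 1.67. Cycs was at 1.67 (adjusted p = 1.3e-08) and Cyc1, cytochrome c1 of complex III and the most abundant of them, at 0.74 (adjusted p = 2.1e-05). Without EY mouse 3, Coq8a was called lower (-1.21, adjusted p = 0.0084). After scaling 5 of these 15 were higher and 3 lower, and the median turned to -0.03. Of the TCA cycle genes, which supply NADH and succinate, 17 of 18 were higher (median 0.89), with values from -0.04 to 1.39. Idh3a was at 1.39 (adjusted p = 1.0e-07) and Idh3b, the most abundant, at 0.70 (adjusted p = 2.8e-05), while Ogdh was not called. After scaling 13 of these 18 were higher and 0 lower (median 0.51).

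The mitochondrial ribosome, which makes the mitochondrially encoded subunits, had 69 of 77 protein genes higher in EY (median 0.82), with Mrpl4 at 2.15 (adjusted p = 9.6e-08) and Mrpl52, the most abundant, at 0.57 (adjusted p = 0.0010). After scaling 48 of these 77 were higher and 1 lower (median 0.47). Of 14 tested regulators of mitochondrial biogenesis (3 more fell below the filter) 9 were higher and 1 lower (median 0.55), from the nuclear receptor Ppara at -1.55 (adjusted p = 1.6e-04) to the GABP subunit Gabpb1 at 0.99 (adjusted p = 1.5e-06), and Myc, the most abundant, at 0.80 (adjusted p = 3.3e-05). Scaling left 7 regulators higher and 1 lower (median 0.18). Glycolysis genes had 16 of 18 higher and 0 lower (median 1.55), with values from -0.52 to 4.88. The lactate exporter Slc16a3 was at 4.88 (adjusted p = 9.7e-08) and Gapdh, the most abundant, at 1.95 (adjusted p = 1.6e-07). Without EY mouse 3, Pfkm was called lower (-0.74, adjusted p = 0.018). With scaling 16 of the 18 glycolysis genes were higher and 1 lower (median 1.18). In Y, 6 of 54 assembly factors, 3 of 15 cytochrome c and coenzyme Q genes, 10 of 18 TCA cycle genes, 36 of 77 ribosome genes, 3 of 14 biogenesis regulators and 15 of 18 glycolysis genes were higher, beside 13% of all genes, and 1 biogenesis regulator was lower. After scaling the lists in this order had 3, 3, 6, 19, 0 and 11 genes higher in Y, beside 7.34% of all genes, and 1 assembly factor, 1 ribosome gene and 1 biogenesis regulator lower. In E, 2 of 54 assembly factors, 1 of 18 TCA cycle genes and 3 of 77 ribosome genes were higher, beside 3.32% of all genes. After median-of-ratios scaling limma called 1 of the mitochondrially encoded subunits lower in Y and 0 in E. On TPM it called 0 of them in Y and in E. At an unadjusted p below 0.05, 2 were lower and 0 higher in Y, where voom called 1 lower, and 7 were lower and 0 higher in E, where voom called 0. Their median log2 fold change was -0.34 in Y and -0.58 in E, and -0.54 and -0.69 after scaling. In E limma also called 0 of the glycolysis genes, 0 of the coenzyme Q list and 0 biogenesis regulators on TPM, with 2 higher, 3 higher and 2 lower at an unadjusted p below 0.05 and 0 by voom. After median-of-ratios scaling 1 biogenesis regulator was called lower in E, as after quantile normalization.

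Markers of other cells that the dissected tissue could hold also differed between groups. The 7 leukocyte markers summed to 8.94 to 66.6 TPM in N mice (7.46 to 81.7 in E, 368 to 656 in Y, 70.1 to 668 in EY), with 2 higher in EY and 1 in Y. The largest change was in the neutrophil gene S100a8 (4.75 in EY, adjusted p = 3.1e-05), which is made by keratinocytes as well and was the most abundant with a mean of 211 TPM. The 6 fibroblast markers summed to 61.5 to 293 TPM in N mice (57.2 to 104 in E, 23.8 to 44.1 in Y, 24.2 to 153 in EY), with 1 lower in EY, Dcn (-2.36, adjusted p = 2.5e-04), which was also the most abundant. In Y 1 fibroblast marker was lower as well, and the median log2 fold change of the 6 was -1.58, beside 0.39 in EY. The 4 endothelial markers summed to 0.172 to 1.49 TPM in N mice (0.268 to 1.38 in E, 0.242 to 0.796 in Y, 0.846 to 5.11 in EY), with Tie1 higher in EY (1.72, adjusted p = 0.0050) and the most abundant. Of 3 adipocyte markers tested Fabp4 was higher in EY (2.89, adjusted p = 0.0028) and the most abundant. They summed to 3.73 to 9.59 TPM in N mice (3.55 to 13.4 in E, 7.06 to 67.2 in Y, 9.57 to 42.7 in EY), and Adipoq and Plin1 were not analysed here. The 4 globin genes summed to 40.4 to 364 TPM in N mice (40.1 to 459 in E, 45.7 to 449 in Y, 53.2 to 631 in EY), and Hba-a1 was the most abundant. Limma called 0 of them in EY, with 0 at an unadjusted p below 0.05 and 0 by voom. Of 3 salivary gland markers tested 2 were lower in EY, Bpifa1 the most (-2.02, adjusted p = 0.022, 0.071 without N mouse 3), and Aqp5 was the most abundant. The list summed to 0.356 to 3.53 TPM in N mice (0.261 to 2.62 in E, 0.296 to 4.36 in Y, 0.330 to 1.52 in EY), with Lpo below the filter and Prol1 not analysed here. For cardiac or slow muscle, Tnnt1 was higher in EY (2.19, adjusted p = 0.0065), and Tnnt2 was the most abundant. The pair summed to 4.44 to 12.4 TPM in N mice (4.56 to 10.05 in E, 6.76 to 11.9 in Y, 4.08 to 11.2 in EY), and Myh6, Myh7 and Myl2 were not analysed here. No marker of these lists in the table was at 0 in every mouse. Their part in the results on the 85 genes was not tested.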

How the data were processed

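The gene table deposited by the authors, in TPM, was the starting point. By the submitters' processing notes the authors used STAR 2.7.9, SAMtools 1.7, HTSeq 0.13.5 and DESeq2 1.34.0 with the genome build GRCm39. The authors compared groups pairwise on counts, whereas TPM need a test on the log scale. How counts were turned into TPM, and how reads fitting several genes were counted, is not stated in the sources used. A gene was kept if 3 or more mice had 0.1 TPM or more, and log2(TPM + 0.1) was fitted with limma 3.58.1 in R 4.3.3, with 1 model of 4 group means, a variance trend and Benjamini-Hochberg adjustment over all 22745 genes. Lists were counted in Python 3.11.15 (pandas 2.3.3, numpy 2.4.6) and plots drawn by matplotlib 3.10.9. Whole reads could be recovered for 24680 of 24680 genes above 0 (tolerance 0.0001, wider for genes with many reads) and were used for limma voom and for depth. The code was tested on simulated data.

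The members and the other lists were chosen with earlier results of these data known. Genes were named by a rule set in the design (the most abundant of each complex, the 5 largest called changes each way in EY, Y and E, isoforms and their usual forms, listed core subunits and the inhibitor, and of each other list the largest increase, the largest decrease and the most abundant), and genes named beyond it are marked as chosen after their values were seen. Of the genes so named, 7 of other lists (Ogdh, Mrpl24, mt-Nd1, Coq8a, Pfkm, Des, Pvalb) are not given by name with their log2 fold change from all mice. That was decided after their results under the alternatives were seen. Alternatives were a pseudocount of 1, no filter, a filter at 1 TPM, median-of-ratios scaling, quantile normalization, only N mice 1 to 3, only the groups compared, a replicate block, a skeletal muscle covariate, voom, a DEG rule of an adjusted p below 0.05 with no limit on the fold change, and leaving out each mouse. Leaving out the mouse highest in muscle markers of each group was added after seeing the data. Lists other than the members were assembly factors, mitochondrially encoded subunits, cytochrome c and coenzyme Q, TCA cycle, mitochondrial ribosome, biogenesis regulators, glycolysis and markers of cell types. Cox6a1, Cox7b2, Cox8c and Pet117 were not analysed here. Named results of 1 member are not reported here. Promoter windows come from a RefSeq table on GRCm38.p6, an older build than that of the expression data.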

Additional observations from a re-analysis of the deposited data

Results flagged for a closer look

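In 180 groups of 5 or 6 mice, over 60 quantities, 15 had a mouse far from the others of its group, with a gap larger than Dixon's limit. Chance alone flags about 1 in 20 groups. Among the usual subunits, in TPM, the lowest mouse stood apart for Sdhd in EY mouse 3 at 69.3 (other mice of its group 84.2 to 91.8), Ndufb6 in N mouse 4 at 12.6 (other mice of its group 19.9 to 21.5), Sdhb in EY mouse 1 at 22.9 (other mice of its group 29.0 to 30.7), Cox5a in E mouse 3 at 46.4 (other mice of its group 52.9 to 55.3), Ndufa6 in N mouse 4 at 56.2 (other mice of its group 76.0 to 83.7) and Atp5pb in E mouse 1 at 57.8 (other mice of its group 70.1 to 74.8). The highest mouse stood apart for the muscle isoforms, with Cox6a2 in N mouse 2 at 24.6 (other mice of its group 1.34 to 4.66) and in EY mouse 3 at 84.1 (other mice of its group 0.674 to 28.8), Cox7a1 in N mouse 2 at 16.1 (other mice of its group 1.78 to 4.59) and in EY mouse 3 at 25.1 (other mice of its group 2.66 to 9.25), and Cox8b in E mouse 5 at 10.03 (other mice of its group 0 to 1.82) and in EY mouse 3 at 39.6 (other mice of its group 1.28 to 12.5). Ndufa11b was above 0 in a single mouse of its group in N mouse 5 at 1.31 TPM and in E mouse 2 at 1.53 TPM. The summed TPM of complex II was highest among the E mice in E mouse 4, at 99.1 (other mice of its group 73.6 to 80.6).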

How the results depend on the processing

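Of 3320 log2 fold changes under the alternatives, 3047 kept their direction and side of the threshold, 167 lost and 58 gained the call in the same direction, and 48 reversed. They cover the genes whose values the report gives and 8 whose value from all mice it does not give by name. Of 512 counts and medians, 91 moved and 421 were taken as close. Those taken as close include shifts by voom from 62 to 51 genes higher in EY and from 51 to 40 higher in EY than in E. They also include the shift of the median in Y from 0.44 to 0.24 with median-of-ratios scaling. The filter at 1 TPM left 83 of the 85 genes and 17826 genes to test. Why values changed under the alternatives was not tested.

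Over all 85 genes, 80 had a log2 fold change above 0 in EY against N on TPM and 64 after median-of-ratios scaling. The direction changed for 16 of the 85 with median-of-ratios scaling, 4 of them called higher on TPM, and for 16 with quantile normalization, 3 of them called higher. Among the genes whose values the report gives, those that reversed in EY against N were, with median-of-ratios scaling, Ndufa6 -0.35, Ndufa11 -0.23, Ndufs3 -0.19, Ndufs7 -0.14, Ndufv2 -0.26, Uqcrh -0.19, Atp5l -0.0900, Ndufb4c -0.17, Atpif1 -0.0851, and with quantile normalization Cox7a2l -0.0198, Ndufa6 -0.37, Ndufa11 -0.22, Ndufs3 -0.23, Ndufs7 -0.18, Ndufv2 -0.29, Uqcrh -0.17, Atp5l -0.0939, Ndufb4c -0.19. With voom they were Ndufa6 -0.14, Ndufa11 -0.0236, Ndufv2 -0.0488, with the muscle covariate Cox6a2 -1.09, Cox7a1 -0.0293, Cox8b -0.93, Ndufa6 -0.0668, with only N mice 1 to 3 Ndufa6 -0.0926, and without the mice highest in muscle markers, an alternative chosen after seeing the data, Ndufa6 -0.00328 and Ndufb4c -0.14. With 1 mouse left out the values ran from lowest to highest as Ndufa6 -0.0719 to 0.0802, Ndufa7 -0.0774 to 0.0123, Cox6b2 -1.59 to 0.25 and Ndufb4c -0.11 to 0.47. The log2 fold changes from all mice of Ndufa1, Ogdh, Mrpl24, mt-Nd1, Coq8a, Pfkm, Des and Pvalb are not given by name. That was decided after their results under the alternatives were seen. Of these, Ndufa1 reversed to -0.0882 with median-of-ratios scaling and -0.11 with quantile normalization, Des to -0.0848 with the muscle covariate, and Ogdh to 0.0211 and Mrpl24 to 0.12 without the mice highest in muscle markers. With 1 mouse left out the range was Ogdh -0.15 to 0.0788 and Mrpl24 -0.0931 to 0.0738.

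The median of the 85 in E moved to -0.0108 with median-of-ratios scaling, -0.0286 with quantile normalization, 0.00781 with only N mice 1 to 3 and 0.15 without the mice highest in muscle markers. In EY it moved to 0.25 with median-of-ratios scaling, 0.25 with quantile normalization and 0.46 with voom, and in Y to 0.18 with quantile normalization. With an adjusted p below 0.05 and no limit on the fold change the DEGs numbered 2 in E, 62 in EY and 38 in Y. In EY they were 5 with voom, 2 with median-of-ratios scaling and 3 with quantile normalization, and in Y 0, 0, 1, 1 and 1 with median-of-ratios scaling, quantile normalization, only N mice 1 to 3, only the groups compared and without the mice highest in muscle markers.

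Genes higher in EY numbered 27 with median-of-ratios scaling and 36 with quantile normalization. In Y they numbered 24 with voom, 15 with median-of-ratios scaling, 10 with quantile normalization, and 22 each with only N mice 1 to 3, only the groups compared and without the mice highest in muscle markers. In E they numbered 4 with the filter at 1 TPM and 0 with either scaling or only N mice 1 to 3. Genes higher in EY than in Y numbered 2 with the filter at 1 TPM, a pseudocount of 1, quantile normalization, the muscle covariate or without the mice highest in muscle markers, and 0 with voom, median-of-ratios scaling or only the groups compared. Higher in EY than in E were 29 with median-of-ratios scaling. Genes lower in EY numbered 1 with voom or only N mice 1 to 3, 6 with median-of-ratios scaling and 8 with quantile normalization. Lower in EY than in E were 1 with voom or without the mice highest in muscle markers, 3 with median-of-ratios scaling and 4 with quantile normalization. Lower in EY than in Y were 0 with only the groups compared, the muscle covariate or without the mice highest in muscle markers, and lower in Y was 1 with quantile normalization.

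With 1 mouse left out, genes higher ran from 58 to 65 in EY, 19 to 42 in Y, 0 to 4 in E, 0 to 4 between EY and Y and 48 to 54 between EY and E. Genes lower ran from 0 to 1 between EY and Y and 0 to 1 between EY and E, DEGs from 7 to 9 in EY and 1 to 4 in Y, and medians from 0.57 to 0.66 in EY, 0.37 to 0.53 in Y and 0.0162 to 0.14 in E. Mouse numbers were not taken to pair mice. Over 24 pairs of the same number in different groups, the correlation of deviations from group means had a median of 0.0119 (-0.0426 to 0.0764). Over 109 pairs of other numbers the median was -0.00751 (-0.195 to 0.0769). These values cannot settle whether mice of 1 number share a litter or batch, which the sample labels do not give. With mouse number as a replicate block, genes higher in E numbered 0 and in EY against Y 3, genes lower in EY than in Y 0, and Ndufa7 in EY was at 0.0123.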
